A study of Mus musculus with 6 samples.

Results

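Expression of 10 core circadian clock genes (Clock, Arntl, Per1, Per2, Per3, Cry1, Bhlhe41, Nr1d1, Nr1d2 and Dbp) was examined in inguinal white adipose tissue, a fat depot under the skin of the groin. The genes were taken by name from the deposited table of 22695 rows, and all 10 were found there. The tissue came from C57BL/6J mice aged 20 months, 3 wild-type (WT) samples and 3 samples from GSNOR knockout (GSNOR KO) mice on the same background. GSNOR is the enzyme encoded by Adh5, and it clears S-nitrosoglutathione, a form in which cells hold nitric oxide. Whether each sample came from its own animal is not stated in the labels, so p-values measure the spread between samples, which may be technical. How the knockout allele was made, the sex of the mice and the time of day at which tissue was taken are not stated by any source used here. Clock transcripts change with the time of day, and the part of sampling time in the differences reported here was not tested.

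The mammalian clock is a set of transcriptional feedback loops. CLOCK and BMAL1, which is encoded by Arntl, bind E-box sequences and activate the Per and Cry genes, whose proteins then repress that activation. The same E-box drive raises the nuclear receptors REV-ERB alpha and REV-ERB beta (Nr1d1 and Nr1d2), which repress Arntl through sequences called ROREs, and the output factor Dbp, which acts on D-box sequences such as those near the Per genes. Bhlhe41 (DEC2) competes for E-boxes and represses. In mouse tissues the Arntl transcript is high when the Dbp and Nr1d1 transcripts are low and the reverse, so a shift of phase moves these genes in opposite directions. Fat tissue runs such a clock, and lipid handling genes are among its outputs.

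The loops meet in the promoters of the genes themselves. RefSeq promoter windows of 250 bases before to 50 bases after a transcription start (build GRCm38.p6) were matched by symbol for 9 of the 10 genes, some with several windows. They were searched on both strands for the E-box CACGTG, the variant CACGTT, the D-boxes TTATGTAA and TTACGTAA, the RORE cores TAGGTCA and TGGGTCA, and the cAMP element TGACGTCA. The following 4 windows are shown because they hold the letters of the 3 loops. They belong to the activator gene Arntl, to 2 Per genes and to Bhlhe41, the only member that passed the main test between the genotypes. Capitals mark the matches, and each window runs 5′ to 3′ on the strand of the gene.
Arntl (chr7:113207261-113207560, plus strand): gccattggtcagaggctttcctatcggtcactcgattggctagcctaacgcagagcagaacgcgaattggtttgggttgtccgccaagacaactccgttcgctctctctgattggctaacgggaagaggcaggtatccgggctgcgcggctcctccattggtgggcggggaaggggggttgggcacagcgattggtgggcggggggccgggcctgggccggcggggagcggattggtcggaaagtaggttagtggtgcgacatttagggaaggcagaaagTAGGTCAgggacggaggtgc
Per1 (chr11:69098699-69098998, plus strand): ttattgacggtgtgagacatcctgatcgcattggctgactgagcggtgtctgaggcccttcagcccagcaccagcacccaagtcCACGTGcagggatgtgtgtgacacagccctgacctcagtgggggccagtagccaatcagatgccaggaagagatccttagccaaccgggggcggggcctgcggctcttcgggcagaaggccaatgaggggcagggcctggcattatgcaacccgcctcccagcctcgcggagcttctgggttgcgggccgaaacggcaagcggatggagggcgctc
Per3 (chr4:151044616-151044915, minus strand): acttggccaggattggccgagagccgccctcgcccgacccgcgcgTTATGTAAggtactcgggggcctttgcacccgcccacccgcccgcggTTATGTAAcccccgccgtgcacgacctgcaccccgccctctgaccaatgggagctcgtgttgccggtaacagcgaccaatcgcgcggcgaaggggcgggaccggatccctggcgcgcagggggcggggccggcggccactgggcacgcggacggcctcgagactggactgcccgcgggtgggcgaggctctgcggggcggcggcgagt
Bhlhe41 (chr6:145865371-145865670, minus strand): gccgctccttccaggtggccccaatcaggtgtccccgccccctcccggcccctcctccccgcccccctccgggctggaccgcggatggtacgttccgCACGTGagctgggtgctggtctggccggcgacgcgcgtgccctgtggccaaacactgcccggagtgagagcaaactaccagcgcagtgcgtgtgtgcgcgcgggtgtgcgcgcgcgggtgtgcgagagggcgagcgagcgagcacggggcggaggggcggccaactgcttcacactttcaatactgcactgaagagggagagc

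The Arntl window held TAGGTCA, first letter at position 31 after its second listed start. The window of its first listed start held no match. An E-box stood at position -166 from the first listed start in Per1, whose second window held no match, and at -153 in Bhlhe41. Per3 held 2 copies of TTATGTAA, at positions -205 and -158 from its start. Among the windows not shown, Cry1 held CACGTG at position -60 and the variant at -79, and Nr1d1 held the variant at -28. CACGTG was present in 3 of the 9 genes and in 8.09% of the 27025 genes with a window, the variant in 2 and in 5.44%, TAGGTCA in 1 and in 2.97%, and TTATGTAA in 1 and in 1.11%. No match of the other letters was found in the 9 genes, and none of any kind in the windows of Clock, Nr1d2 and Dbp. A match is a description of the sequence and not evidence of binding.

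Libraries held 20277594 to 23961574 counts. A count of 3, taken as the floor of detection, thus stood for 0.125 to 0.148 CPM, the count scaled to a common library total. This floor uses the raw totals, without the TMM scaling that the gene levels carry. The labels were checked on Adh5, which lay at 58.8 to 76.9 CPM in WT and 3.81 to 5.08 CPM in GSNOR KO. Of 13694 genes tested with edgeR's quasi-likelihood test, 964 were called at an adjusted p under 0.05. This number moved in most fits with 1 library left out. It was 3 without GSNOR KO replicate 2 or 3 and 5 without GSNOR KO replicate 1. It was 13 without WT replicate 2, 915 without WT replicate 3 and 2844 without WT replicate 1. Each such fit has 1 library fewer in its group, and the part of the smaller group in these counts was not tested. Adipocyte markers were abundant, with Adipoq at 322 to 576 CPM and Plin1 at 505 to 706 CPM, while Ucp1, the marker of thermogenic fat, lay at 564 to 2113 CPM. The 8 mammary epithelium markers summed to 0 to 3.28 CPM, with Csn2, Csn3 and Wap at 0 in every library. The summed levels of skeletal muscle markers and of macrophage markers were lower in GSNOR KO. The 10 muscle markers found took 2.99, 1.22 and 1.30% of the scaled counts of the WT libraries and 0.782, 0.477 and 0.713% of those of the GSNOR KO libraries, each in the order of replicates 1 to 3, and 5 of the 10 fell, beside 3.14% of all genes called lower. Of 10 macrophage markers 6 fell. The 10 summed to 593, 283 and 284 CPM in the WT libraries and 170, 128 and 158 CPM in the GSNOR KO libraries, in the same order. The groups overlapped for Cd163 (log2 fold change -0.12, edgeR adjusted p = 0.816). In bulk tissue, fewer cells of a type and less RNA per cell cannot be told apart, and both muscle and immune cells have clocks of their own.

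All 10 clock genes were expressed well above the floor, the lowest count being 49 for Arntl in WT replicate 1, and all 10 passed the filter on low counts. Levels between genes were compared on the authors' FPKM scale, which divides by transcript length. Nr1d1 was the most abundant at 97.8 ± 10.1 FPKM (SD over all 6 libraries), and its lowest library stood above the highest library of every other member. Dbp followed at 41.2 ± 12.7 FPKM and Nr1d2 at 23.7 ± 3.71 FPKM, with overlapping ranges, and Per1 stood apart below them at 13.2 ± 2.08 FPKM. The other 6 genes formed a continuous series in which each overlapped the next, from Per3 at 6.52 ± 1.52 FPKM through Bhlhe41 (5.25 ± 1.90), Per2 (4.15 ± 1.08), Cry1 (3.91 ± 0.387) and Clock (3.0 ± 0.449) to Arntl at 2.0 ± 1.04 FPKM. The 2 activators had the lowest mean FPKM of the 10, and the ranges of both overlapped those of Cry1, Per2 and Bhlhe41.

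**Figure D1:**
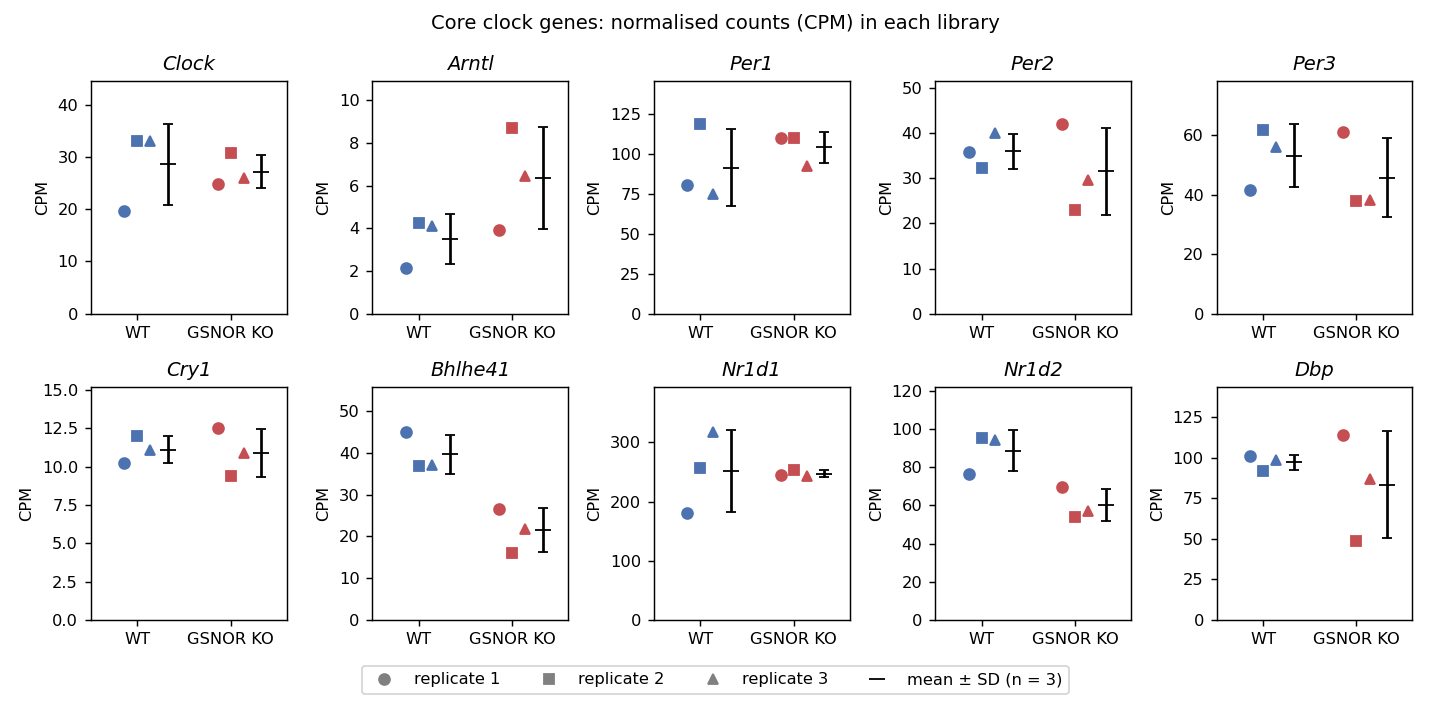
Normalised counts (CPM, linear axes from 0) of the 10 clock genes in each library, WT in blue and GSNOR KO in red, with the replicate number as the symbol and the mean ± SD (n = 3) in black. The groups overlap in 8 panels and stand apart for Bhlhe41 and Nr1d2.

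Between the genotypes, 1 of the 10 clock genes was called, Bhlhe41, which fell in GSNOR KO, and 9 did not pass. Over all genes tested 7.04% were called in either direction, 3.14% lower and 3.90% higher, so the count of 1 is not read as a property of the set. The groups did not overlap for 2 of the 10 genes, Bhlhe41 and Nr1d2, while this was so for 36.7% of all genes tested. At an unadjusted p under 0.05 stood the same 2 genes, against 28.6% of all genes. The median log2 fold change of GSNOR KO over WT was -0.13 over the 10 genes and -0.04 over all genes tested, and 2 of the 10 values were above 0.

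Levels in single libraries are listed from here on in the order of replicates 1 to 3 of each genotype. Of the activators, Clock encodes the partner of BMAL1 with histone acetyltransferase activity. Its level was 19.7, 33.1 and 33.1 CPM across the WT libraries and 24.8, 30.8 and 26.0 CPM across the GSNOR KO libraries. The GSNOR KO values lay within the WT range, and the log2 fold change was -0.07 (SE 0.211, edgeR adjusted p = 0.847, 95% interval of the change -0.57 to 0.42). With the macrophage marker score as a covariate the Clock value became -1.13 (edgeR adjusted p = 0.0305), a fit in which the covariate itself differs between the groups.

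Arntl, which encodes BMAL1, was measured at 2.14, 4.23 and 4.12 CPM across the WT libraries and 3.91, 8.70 and 6.43 CPM across the GSNOR KO libraries. GSNOR KO replicates 2 and 3 stood above every WT library and replicate 1 stood among them. Means ± SD were 3.50 ± 1.17 against 6.35 ± 2.40 CPM with n = 3 per genotype, and the change of 0.86 on the log2 scale (SE 0.371) did not pass the test (edgeR adjusted p = 0.177). It was the largest value in size after that of Bhlhe41 among the 10 genes, and its 95% interval ran from -0.005 to 1.73. With the muscle or the macrophage marker score as a covariate the sign turned, to -0.41 and -0.80. In both fits the covariate itself differs between the groups.

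Among the repressors of the E-box loop, Per1 is also switched on by cAMP and by glucocorticoids. It was measured at 80.8, 119 and 75.1 CPM across the WT libraries and 110.0, 110.1 and 92.9 CPM across the GSNOR KO libraries (log2 fold change 0.19, SE 0.189, edgeR adjusted p = 0.556). The GSNOR KO libraries lay inside the WT range. Per2, whose protein is the main brake on CLOCK and BMAL1 together with the cryptochromes, was measured at 35.8, 32.2 and 40.0 CPM across the WT libraries and 42.0, 23.0 and 29.7 CPM across the GSNOR KO libraries. Its highest and its lowest library were thus both GSNOR KO, and the log2 fold change was -0.19 (SE 0.216, edgeR adjusted p = 0.604).

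Per3, another period gene whose loss leaves the clock running in mice, was measured at 41.5, 61.8 and 56.1 CPM across the WT libraries and 60.9, 37.8 and 38.3 CPM across the GSNOR KO libraries. GSNOR KO replicates 2 and 3 were the lowest of all 6 libraries and replicate 1 was the second highest (log2 fold change -0.22, SE 0.229, edgeR adjusted p = 0.576). Cry1 is a cryptochrome that represses CLOCK and BMAL1 directly. Its levels were 10.2, 12.0 and 11.1 CPM across the WT libraries and 12.5, 9.38 and 10.9 CPM across the GSNOR KO libraries (log2 fold change -0.03, SE 0.152, 95% interval -0.38 to 0.33, edgeR adjusted p = 0.931).

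Bhlhe41 (ENSMUSG00000030256, chromosome 6, 145858243 to 145865558, minus strand, GRCm38) was measured at 45.1, 37.0 and 37.1 CPM across the WT libraries and 26.6, 16.1 and 21.8 CPM across the GSNOR KO libraries. Every GSNOR KO library was below every WT library. Means ± SD were 39.7 ± 4.65 against 21.5 ± 5.29 CPM with n = 3 per genotype, 1.85-fold higher in WT (log2 fold change -0.89, SE 0.192, edgeR adjusted p = 0.0419). DESeq2 and limma voom called it too, as they did 15.0% and 5.37% of all genes they tested. It kept a negative fold change in all 18 alternatives and lost the call in 10 of them, including 5 of the 6 in which 1 library was left out, where the adjusted p ranged from 0.0339 without WT replicate 1 to 0.154 without GSNOR KO replicate 3. Bhlhe41 was highest in WT replicate 1 and lowest in GSNOR KO replicate 2, which are also the libraries with the most and the least muscle and macrophage marker RNA. With the muscle score as a covariate its log2 fold change was -0.34 (edgeR adjusted p = 0.418) and with the macrophage score -0.22 (edgeR adjusted p = 0.688). Both scores were higher in every WT library than in every GSNOR KO library, so these fits cannot separate the score from the genotype. The part of these cell types in the fall was not tested. An annotated transcript on the opposite strand shares 1280 of its 6720 exon bases, and whether counting used strand is not stated.

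The 2 REV-ERB genes of the RORE loop differed from each other in their values. Nr1d1 was measured at 180.5, 257 and 318 CPM across the WT libraries and 244, 254 and 243 CPM across the GSNOR KO libraries. The GSNOR KO libraries were nearly level and lay inside a WT range that spanned 1.76-fold, with a log2 fold change of -0.03 (SE 0.199, 95% interval -0.49 to 0.43, edgeR adjusted p = 0.938). The gene ends inside Thra, the thyroid hormone receptor gene on the opposite strand, with 263 shared of 3077 exon bases, and Thra lay at 54.5 to 97.6 CPM.

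Nr1d2 was measured at 76.5, 95.3 and 94.3 CPM across the WT libraries and 69.9, 53.8 and 57.3 CPM across the GSNOR KO libraries. Every GSNOR KO library was below every WT library, with means ± SD of 88.7 ± 10.6 against 60.3 ± 8.45 CPM (n = 3 per genotype). The log2 fold change was -0.56 (SE 0.145) and the edgeR adjusted p was 0.0602, so the difference did not pass. DESeq2 called it (adjusted p = 0.0144), and edgeR did so without WT replicate 1 (adjusted p = 0.00613). No test of Nr1d1 against Nr1d2 was made.

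Dbp, the D-box activator whose transcript swings most widely in many tissues, was measured at 101, 91.8 and 98.8 CPM across the WT libraries and 114, 48.5 and 86.9 CPM across the GSNOR KO libraries. The WT libraries lay within 1.10-fold of each other, while the GSNOR KO libraries spanned 2.35-fold and included both the highest and the lowest of all 6. The log2 fold change was -0.22 (SE 0.278, edgeR adjusted p = 0.638), and it turned to 0.05 without GSNOR KO replicate 2 and to -0.52 without GSNOR KO replicate 1. Dbp shares 539 of its 2993 exon bases with Sphk2 on the opposite strand. Sphk2, a sphingosine kinase gene, was at 106, 77.4 and 101 CPM in GSNOR KO replicates 1 to 3, in the same order as Dbp.

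**Figure D2:**
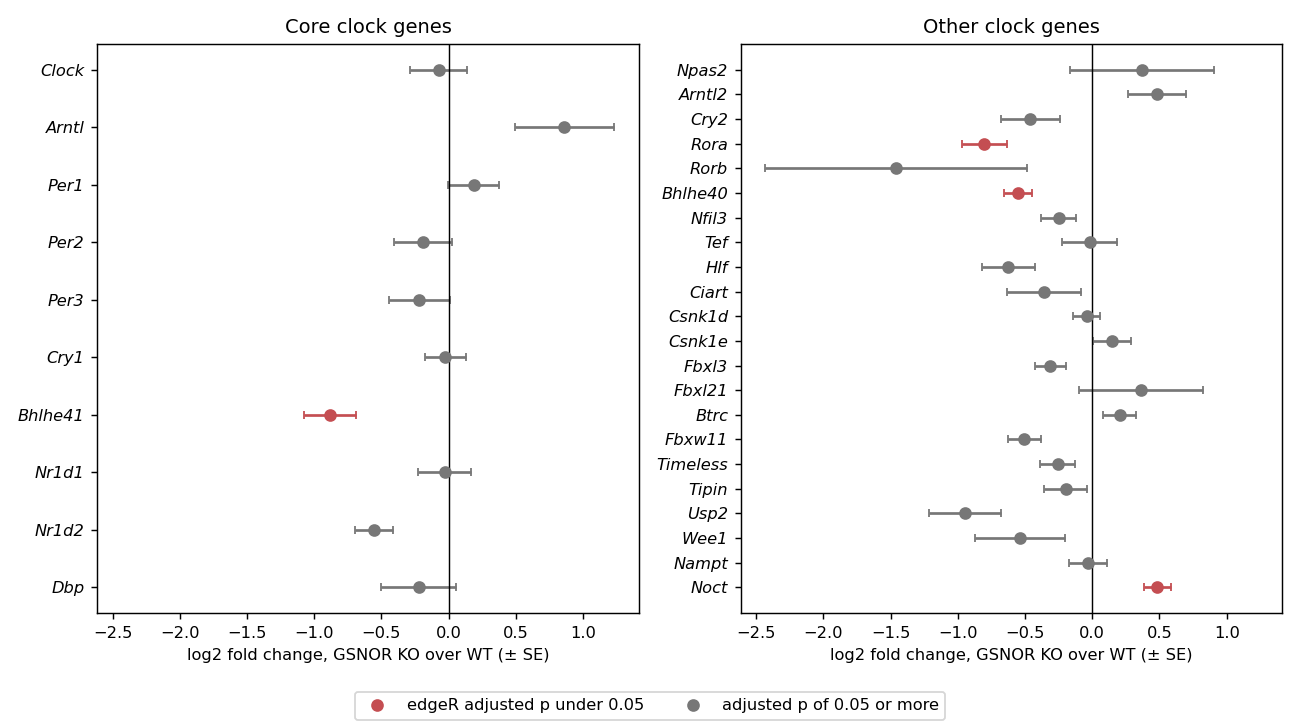
Log2 fold changes of GSNOR KO over WT (points) with their SE (bars) for the 10 core clock genes on the left and 22 other clock genes on the right, on one axis. Red marks an edgeR adjusted p under 0.05, which holds for Bhlhe41, Rora, Bhlhe40 and Noct.

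The GSNOR KO libraries differed among themselves in the clock genes. GSNOR KO replicate 2 had the lowest level of its group in 6 of the 10 genes (Per2, Per3, Cry1, Bhlhe41, Nr1d2 and Dbp) and the highest in the other 4 (Clock, Arntl, Per1 and Nr1d1), and replicate 1 was highest in those same 6. Over all genes tested, replicate 2 was lowest in 38.3% and highest in 34.8%, and replicate 1 was highest in 34.3%. The WT libraries differed among themselves as well. WT replicate 1 was lowest of its group in 6 of the 10 genes (42.6% of all genes tested). WT replicate 2 was highest in 6 of the 10 (28.4% of all genes tested). The SD of log2 CPM over the 3 GSNOR KO libraries was 0.630 for Dbp, 0.433 for Per2, 0.391 for Per3, 0.365 for Bhlhe41 and 0.569 for Arntl. Among genes of similar level, within 1 log2 unit, these SDs ranked at the 99.5th percentile for Dbp, the 98.4th for Per2, the 98.2nd for Per3, the 97.5th for Bhlhe41 and the 93.5th for Arntl. In WT the SD was 0.071 for Dbp (the 11.8th percentile), 0.155 for Per2 (the 39.1st) and 0.163 for Bhlhe41 (the 41.0th). It was 0.299 for Per3 (the 72.5th) and 0.530 for Arntl (the 78.0th). Not every member was more variable in GSNOR KO. The SD was larger in WT for Nr1d1 (0.413 in WT and 0.034 in GSNOR KO), Clock (0.428 and 0.163) and Per1 (0.356 and 0.141), and Arntl was about as variable in WT (0.530). By rank, Nr1d1 stood at the 78.5th percentile in WT and the 12.3rd in GSNOR KO, and Clock at the 87.1st and 77.7th. Per1, at the 77.0th and 78.8th, was no more variable in WT by rank, and Arntl ranked lower in WT than in GSNOR KO. Cry1 stood at the 18.5th and 72.8th and Nr1d2 at the 44.5th and 89.5th. These ranks describe 3 libraries a group, and the difference in spread between the groups was not tested.

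In GSNOR KO replicate 2 Arntl was at its highest, while Dbp, Per2, Per3, Nr1d2 and Bhlhe41 were at their lowest. Differences of Arntl from other members are given as levels relative to Arntl, and each holds the variation of Arntl itself. The log2 difference of Arntl minus Dbp, from log2 CPM with a prior count of 3, was -5.47, -4.40 and -4.54 across the WT libraries and -4.82, -2.46 and -3.73 across the GSNOR KO libraries. GSNOR KO replicates 2 and 3 stood above all WT libraries, and replicate 1 stood below 2 of them. Arntl minus Per2 and Arntl minus Per3 showed the same arrangement, with GSNOR KO replicate 1 at -3.38 and -3.92, inside the WT ranges, and replicate 2 at -1.39 and -2.10, above them. Arntl minus Nr1d2 and Arntl minus Bhlhe41 separated the groups in all 6 libraries, which follows in part from the separation of Nr1d2 and Bhlhe41 themselves. Arntl minus Nr1d1 was -6.31, -5.88 and -6.23 across the WT libraries and -5.92, -4.84 and -5.21 across the GSNOR KO libraries, with replicates 2 and 3 again above all WT libraries and replicate 1 among them although Nr1d1 was nearly level in GSNOR KO, so this arrangement alone does not show that the other gene moved against Arntl. Nr1d1 and Per1 did not mirror Arntl in GSNOR KO, since neither was lowest in replicate 2, and Per1 was almost level between replicates 1 and 2.

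Without GSNOR KO replicate 1 the log2 fold changes were 1.12 for Arntl, -0.52 for Dbp, -0.45 for Per2 and -0.48 for Per3, and the smallest of their edgeR adjusted p-values was 0.150. Without GSNOR KO replicate 2 they were 0.57, 0.05, -0.004 and -0.09, and the smallest adjusted p was 0.472. Without GSNOR KO replicate 3 they were 0.86, -0.25, -0.14 and -0.10. Leaving out a WT library moved some of them as well, Per3 to -0.09 without WT replicate 2 and Per2 to -0.07 without WT replicate 3. Arntl stayed above 0 in each of the 6 leave-outs, from 0.57 to 1.12. GSNOR KO replicate 2 also had the least muscle marker RNA, with a mean log2 score of -1.16 about the mean of the 6 libraries against -0.40 and -0.53 in GSNOR KO replicates 1 and 3, and the lowest macrophage score (-0.79 against -0.44 and -0.46). Its progenitor (-0.80 against -0.23 and -0.35), lymphocyte (-1.26 against -0.32 and -0.35) and adipocyte (-0.28 against -0.15 and 0.0014) marker scores were also the lowest. Its thermogenic (0.46 against 0.28 and 0.23) and endothelial (0.29 against 0.12 and 0.17) marker scores were the highest. The part of tissue makeup in the spread was not tested.

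**Figure D3:**
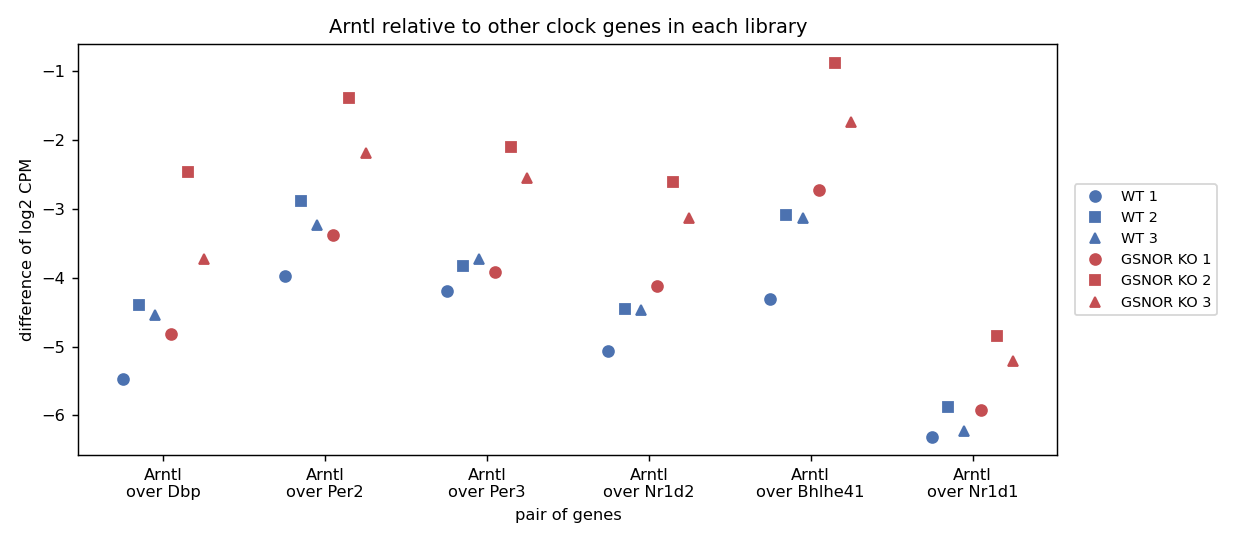
Difference of log2 CPM between Arntl and 6 other clock genes in each library, WT in blue and GSNOR KO in red, with the replicate number as the symbol. For Dbp, Nr1d1, Per2 and Per3, GSNOR KO replicates 2 and 3 sit above all WT libraries while GSNOR KO replicate 1 lies among them.

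Of 23 further genes of the clock loops, their modifiers and outputs, 22 were found and tested. Here 1 rose, 2 fell and 19 did not pass, beside 7.04% called of all genes tested, and the median log2 fold change was -0.25. Bhlhe40 (DEC1), the close relative of Bhlhe41, fell from a mean of 57.6 ± 4.33 to one of 39.3 ± 2.23 CPM (SD over n = 3 per genotype), by 0.55 on the log2 scale (SE 0.106, edgeR adjusted p = 0.0321). Single libraries read 62.2, 57.1 and 53.6 CPM for WT and 39.1, 41.6 and 37.1 CPM for GSNOR KO, without overlap. Rora, a nuclear receptor that activates through the same ROREs that the REV-ERB proteins repress, fell from a mean of 27.1 ± 3.61 to one of 15.5 ± 2.86 CPM, by 0.80 on the log2 scale (SE 0.168, edgeR adjusted p = 0.0378). It was measured at 30.9, 26.5 and 23.8 CPM across the WT libraries and 18.7, 13.1 and 14.8 CPM across the GSNOR KO libraries.

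Noct (listed in the table under its older symbol Ccrn4l), which encodes nocturnin, a rhythmic phosphatase linked to lipid metabolism, rose from a mean of 102.6 ± 5.54 to one of 143.5 ± 2.0 CPM (SD over n = 3 per genotype), by 0.48 on the log2 scale (SE 0.102, edgeR adjusted p = 0.0384). Its GSNOR KO libraries, at 143, 142 and 146 CPM, lay close together and above the WT values of 96.8, 108 and 103 CPM. Bhlhe40 and Rora kept their calls without WT replicate 1 or WT replicate 3 and lost them in the other 4 leave-outs, and Noct kept its call without WT replicate 1 and lost it in the other 5, with adjusted p-values up to 0.152 for Bhlhe40, 0.163 for Rora and 0.162 for Noct. Their log2 fold changes in the leave-outs were -0.59 to -0.46 for Bhlhe40, -0.95 to -0.67 for Rora and 0.47 to 0.53 for Noct. With the muscle and the macrophage score as a covariate none of the 3 passed, at -0.46 and -0.40 for Bhlhe40, -0.35 and -0.21 for Rora, and 0.39 and 0.35 for Noct. Both scores differ between the groups, so these fits cannot separate the score from the genotype. DESeq2 called 2 more of the wider list that edgeR did not, beside 15.0% of all genes it tested. One was Fbxw11, a ubiquitin ligase component (log2 fold change -0.51, edgeR adjusted p = 0.0521). The other was Usp2, a ubiquitin protease gene, at 72.5, 40.2 and 39.1 CPM across the WT libraries and 31.4, 21.4 and 25.9 CPM across the GSNOR KO libraries, without overlap (log2 fold change -0.95, SE 0.268, edgeR adjusted p = 0.0735).

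Replicate 2 of GSNOR KO was the lowest of its group in 13 of the 22 wider genes (59.1%, against 38.3% of all genes tested) and the highest in 6 (27.3%, against 34.8%). The 13 include Rorb, with 1 count in each of replicates 1 and 2, and Noct, which was almost level. The 6 include Fbxl21, near the floor at 18 counts in replicate 2. Examples of both arrangements, chosen after their values were seen, follow. Hlf and Tef, D-box factors of the same family as Dbp, were at 20.3, 12.4 and 13.5 CPM and at 330.5, 217 and 256 CPM in GSNOR KO replicates 1 to 3. Ciart, which encodes the repressor CHRONO, was at 10.3, 5.25 and 7.01 CPM and Cry2, the second cryptochrome, at 46.0, 27.6 and 37.3 CPM in the same libraries. In each of these 4 genes GSNOR KO replicate 1 was highest and replicate 2 lowest of the group, as for Dbp. Nampt, which encodes the rate-limiting enzyme of NAD salvage, was highest in replicate 2 (115, 126 and 111 CPM), as was Bhlhe40. Nfil3, a D-box repressor, was lowest in replicate 1 (8.95, 9.78 and 9.84 CPM), and Noct was almost level. Npas2, which can stand in for Clock, was close to the floor at 0.350 to 1.08 CPM, so no pattern could be read from it.

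**Figure D4:**
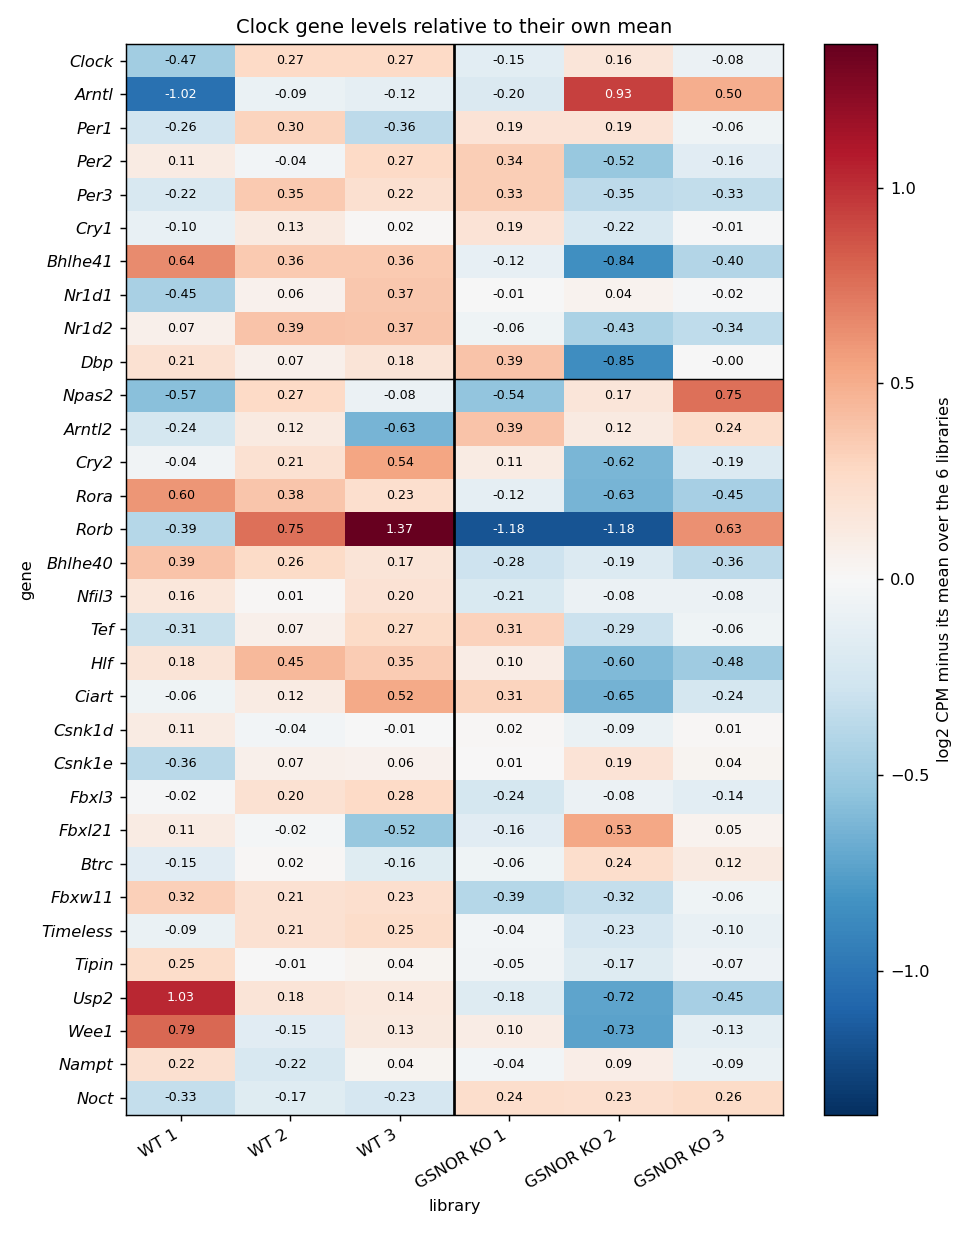
Log2 CPM of each clock gene minus its own mean over the 6 libraries (columns), with the 10 core genes above the horizontal line and 22 further genes below it, blue for lower and red for higher. In GSNOR KO replicate 2, Arntl stands at 0.93 while Dbp, Bhlhe41 and Per2 stand at -0.85, -0.84 and -0.52.

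Per1 responds to hormones and to handling as well as to the clock, and the levels of such genes stand beside it here. Of 10 glucocorticoid-responsive genes edgeR and limma voom called 0 (7.04% and 5.37% of all genes), with 6 at an unadjusted edgeR p under 0.05 (28.6% of all genes). DESeq2 called 4 of them (15.0% of all genes), of which 2 had risen and 2 had fallen (7.31% and 7.70% of all genes). Of 11 immediate early genes 1 fell, Fos, from 32.7, 24.6 and 32.4 CPM across the WT libraries to 11.3, 8.44 and 8.36 CPM across the GSNOR KO libraries (log2 fold change -1.68, SE 0.177, edgeR adjusted p = 0.0178), while edgeR called 3.14% of all genes lower, and DESeq2 called 3 of the 11 lower (7.70% of all genes). The part of either response in the clock gene levels was not tested.

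The genes whose levels followed Dbp most closely over the 6 libraries were Tango6, Zfp346, Fam174b, Fbxl14 and Rragb, with Pearson correlations of log2 CPM of 0.96 to 0.99. For Arntl they were Leng9, Hnrnph3, F11r, Tmigd1 and Ptger1, at 0.988 to 0.993. They are the closest of 11826 genes compared over 6 libraries that share tissue makeup and fall into 2 genotypes, so the values are a description only, and no gene of the clock lists was among them.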

How the data were processed

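Messenger RNA of 3 WT and 3 GSNOR KO samples was measured by poly-T capture and random-primed Illumina sequencing, per the labels' protocols. The authors deposited raw counts and FPKM per gene and library, per the file headers, and the build was GRCm38 (mm10), per the submitters' processing notes. The aligner, the counting tool and strand use are not stated by any source used here. For the 10 genes the ratio of CPM to FPKM within a gene varied 1.20- to 1.59-fold between libraries, so the deposited FPKM values are not counts over 1 fixed length and served only for levels between genes and 1 kind of alternative.

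Counts were tested with edgeR 4.0.16 (R 4.3.3): filterByExpr (13694 genes kept), TMM scaling (0.930 to 1.08), the robust quasi-likelihood F test of GSNOR KO against WT, Benjamini-Hochberg adjustment over all genes tested, called under 0.05. CPM are TMM-scaled. The SE is the log2 fold change over the square root of F, and 95% intervals use the moderated degrees of freedom. An exact permutation test of 3 against 3 cannot go below 0.1 and was not used. Intervals and floors cover these libraries only. DESeq2 1.42.0, limma 3.58.1 and the other settings were alternatives. The script was tested on simulated data. Gene positions are from GENCODE M21 and promoters from RefSeq.

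Named genes were all 10 members, the called genes and the 4 with the smallest p of the wider list, and the 5 genes most like Dbp and Arntl. Usp2, Hlf, Tef, Ciart, Cry2, Nampt, Nfil3, Npas2, Fbxl21 and Rorb of the wider list, and Fos, were named after their values were seen. Members and lists were chosen with earlier results of these data known. Of 12 muscle markers 10 were found, and of 23 wider clock genes 22. Lists of lymphocyte (7 tested), progenitor (8), endothelial (6), thermogenic (6) and adipocyte (10) markers were also counted. By edgeR, 5 progenitor genes were called lower, 3 thermogenic genes higher and 1 adipocyte gene each way (3.14% of all genes tested lower and 3.90% higher). Of the lymphocyte and endothelial genes edgeR called 0, with 4 and 1 at an unadjusted p under 0.05 (28.6% of all genes). DESeq2 called 5 of 8 lymphocyte and 6 progenitor genes lower (7.70% of all genes it tested). It called 1 endothelial and 3 thermogenic genes higher (7.31%), and of the adipocyte genes 2 higher and 1 lower.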

Additional observations from a re-analysis of the deposited data

How the results depend on the processing

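The count of genes called over the whole table, 964, became 2292 with DESeq2, 258 and 199 with limma on log2(FPKM + 0.1) and log2(FPKM + 1), 476 with the macrophage score and 4 with the muscle score as covariate, and 3 to 2844 with 1 library left out. The split of 534 higher and 430 lower became 314 and 406 with library totals only and 376 and 508 with the replicate number as a block. The count of clock genes called, 1 of 10, was 2 with DESeq2, 0 with library totals only, 0 with both FPKM fits, 0 with the muscle score, and 0 to 2 in the leave-outs. With the macrophage score it was also 1, but the gene was Clock and not Bhlhe41. The count in the wider list, 3 of 22, was 5 with DESeq2, 0 with both FPKM fits, 0 with either marker score, and 0 to 6 in the leave-outs, the highest without WT replicate 1.

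Of 252 recomputed fold changes of 14 genes, 189 kept direction and side of the threshold, 38 lost the call, 6 gained it and 19 changed sign. With the muscle score the sign turned for Arntl (-0.41), Per1 (-0.10), Per2 (0.14) and Dbp (0.35). With the macrophage score it turned for Arntl (-0.80), Per1 (-0.15), Per2 (0.12) and Dbp (0.40). Both scores differ between the groups, so these fits cannot separate the score from the genotype. Clock turned to 0.025 and 0.037 with limma on log2(FPKM + 1) and log2(FPKM + 0.1), and Nr1d1 to 0.0081 with limma voom and 0.0080 with the replicate block. In the leave-outs Clock ranged from -0.25 to 0.080, Cry1 from -0.13 to 0.077, Nr1d1 from -0.19 to 0.21 and Dbp from -0.52 to 0.053. Apart from the direct comparison of libraries left out, the cause of these changes was not tested.

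The replicate numbers were not taken as pairs: deviations of same-numbered libraries correlated at 0.16, 0.14 and -0.06 across genes, and not every library correlated best with its own number. With the replicate block 884 genes, 1 of the 10 clock genes and 2 of the wider list were called, with Bhlhe40 at an adjusted p of 0.0513 and Noct at 0.0771. Counts of the 10 genes were 49 or more in every library, while Npas2 (8 to 24 counts), Fbxl21 (7 to 18) and Rorb (1 to 20) of the wider list lay near the floor of 3. Groups of 3 are too small for a test of single outlying libraries.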
